A study of Rattus norvegicus with 13 samples.

Results

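The hypothalamus reads the body's energy state through receptors for circulating hormones and local lipid messengers, and 8 genes for such receptors were followed here in rats raised on a high-fructose or a chow diet. Their rows were taken from the deposited table by symbol: Gipr, Ghsr, Glp1r, Calcr, Adipor1, Adipor2, Cnr1 and Lepr, 8 rows of 17366. All 8 averaged 0.5 FPKM or more and so were among the 11837 genes tested. FPKM counts fragments relative to transcript length and library size, so levels of different genes can be set side by side. Lepr had no row of its own: its value was in a row joined with Leprot, and it stands for the pair throughout.

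RNA came from the whole hypothalamus of 13 rats, 6 fed a diet of 55% fructose and 7 fed standard chow with 0.30% fructose. Both diets began on postnatal day 25 in pair-housed rats. After a fast begun on day 79, each rat was injected intraperitoneally on day 80 with glucose at 2 g per kg or with saline, and killed 1 h later. The sources used here do not give the injection of each sequenced rat, its cage mate, sex or strain.

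As background, Gipr, Glp1r and Calcr encode class B G protein-coupled receptors, for glucose-dependent insulinotropic polypeptide (GIP), glucagon-like peptide 1 and calcitonin, and act mainly by raising cAMP. With a receptor activity-modifying protein (Ramp1, Ramp2 or Ramp3) the calcitonin receptor forms receptors for amylin. Ghsr encodes the receptor of ghrelin, the hormone of the stomach that drives feeding. Adipor1 and Adipor2 encode the receptors of adiponectin, which act in part through AMP-activated kinase. Cnr1 encodes the cannabinoid receptor of neurons, activated by lipids made on demand, and Lepr the cytokine receptor of leptin, the satiety hormone of fat tissue, which signals through Jak2 and Stat3.

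RefSeq (assembly GRCr8) gave 250 bases before the annotated start for 6 of the 8 genes, all but Gipr and Cnr1. The windows of Leprot and Lepr are shown because the table could not part these genes, and that of Ghsr because its transcript changed. The Leprot window (chr5:121404920-121405169), the Lepr window (chr5:121409485-121409734) and the Ghsr window (chr2:112196908-112197157) are all on the plus strand. Capitals mark the GC box GGGCGG and the cAMP response half-site TGACG, on either strand.
Leprot: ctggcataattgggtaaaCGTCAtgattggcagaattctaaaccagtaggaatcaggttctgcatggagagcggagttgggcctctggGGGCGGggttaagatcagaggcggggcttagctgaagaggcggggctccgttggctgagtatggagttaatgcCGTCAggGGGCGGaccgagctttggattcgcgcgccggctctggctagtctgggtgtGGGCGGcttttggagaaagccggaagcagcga
Lepr: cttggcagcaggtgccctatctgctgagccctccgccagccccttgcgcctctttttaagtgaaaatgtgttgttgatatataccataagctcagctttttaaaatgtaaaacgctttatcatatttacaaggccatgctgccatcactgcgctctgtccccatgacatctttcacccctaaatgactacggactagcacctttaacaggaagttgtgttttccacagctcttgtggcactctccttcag
Ghsr: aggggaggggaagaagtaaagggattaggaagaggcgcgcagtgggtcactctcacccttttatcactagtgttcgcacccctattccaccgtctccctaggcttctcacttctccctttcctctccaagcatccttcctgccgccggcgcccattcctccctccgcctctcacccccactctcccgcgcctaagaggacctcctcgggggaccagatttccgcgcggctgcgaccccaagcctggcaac
The Leprot and Lepr starts lay 4565 bases apart. The Leprot window held 3 GC boxes and 2 half-sites, and neither was found in the Lepr or the Ghsr window. Of 33469 rat windows of this length 30.5% held a GC box and 18.2% a half-site. The GC content was 58.4% for Leprot, 46.4% for Lepr and 61.6% for Ghsr, beside a median of 51.2% over all windows. Elsewhere among the receptors, the Glp1r window held 4 GC boxes, some of them overlapping, and the windows of Calcr and Adipor1 held 2 each. The Calcr window also held 2 half-sites, and those of Glp1r, Adipor1 and Adipor2 held none.

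The levels of the 8 transcripts spanned a wide range. Adipor1 stood highest at a mean of 71.95 FPKM over the 13 rats, above 86.9% of the genes tested, and Adipor2 followed at 40.99 FPKM. The joined Lepr row came next at 30.5 FPKM, then Calcr at 19.3 FPKM and Cnr1 at 18.97 FPKM. The 3 others were low: Gipr at 3.82 FPKM, Ghsr at 2.11 FPKM and Glp1r at 1.20 FPKM, the last above only 6.61% of the genes tested. Adipor1 exceeded Adipor2, and Cnr1 exceeded Gipr, in 13 of 13 rats with ranges that did not overlap. Calcr and Cnr1 could not be ordered, since Calcr was the higher in 7 of 13 rats. For the remaining neighbours the ranges overlapped, though Adipor2 was above Lepr in 11 rats, Lepr above Calcr in 12, Gipr above Ghsr in 12 and Ghsr above Glp1r in 11.

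**Figure D1:**
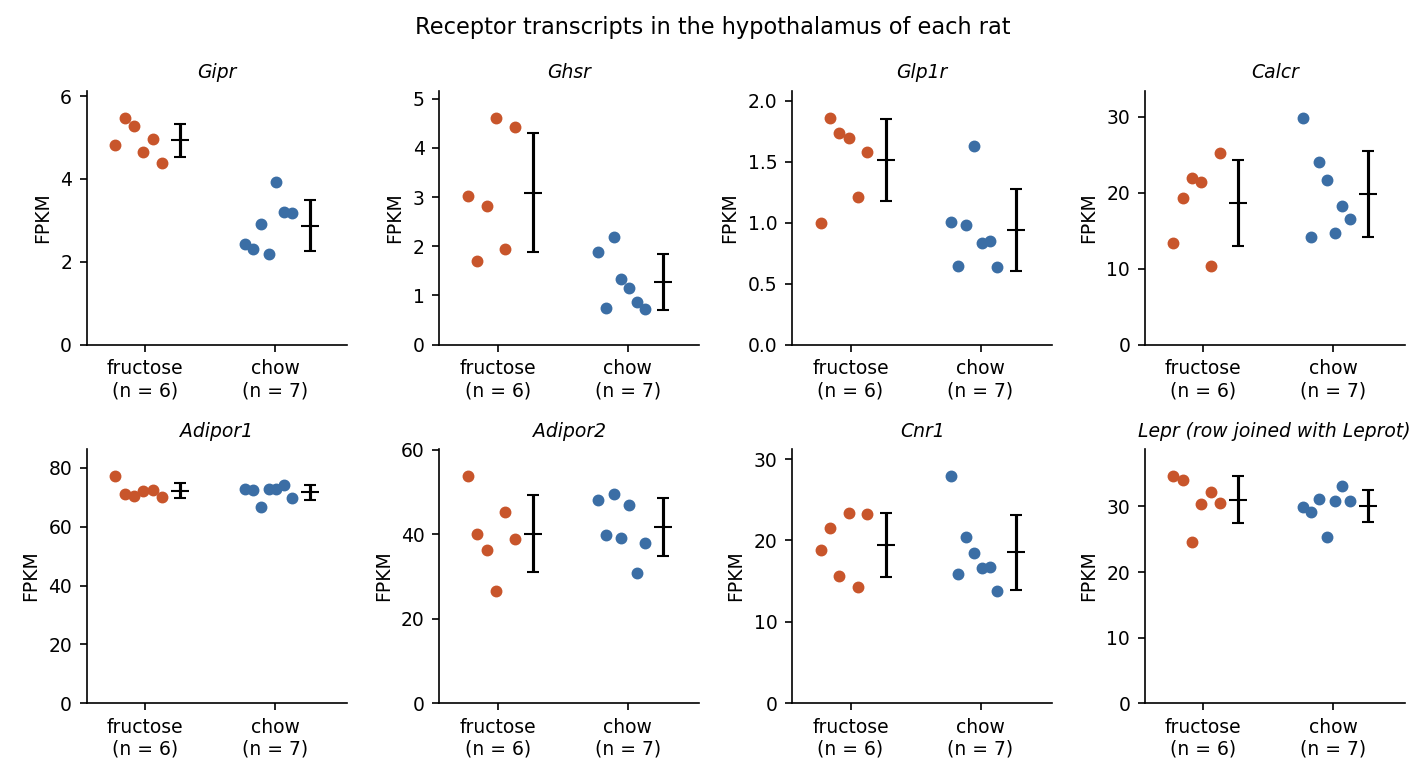
FPKM of each receptor transcript (vertical axes, each starting at 0) in each of 6 fructose and 7 chow rats (points), with the mean and SD beside them in black. All 6 fructose rats lie above all 7 chow rats for Gipr, while the diets overlap for the 7 other transcripts.

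Gipr and Ghsr, 2 of the 3 receptors of low level, were higher on fructose, by 1.71 and 2.42 times in their mean FPKM (n = 6 fructose and 7 chow rats). Of the 8 receptors 2 changed, both higher (limma, adjusted p under 0.05), where 3.94% of all tested genes changed, 1.66% higher and 2.27% lower. That background itself moved with single rats: 83 to 859 genes changed with 1 rat left out, against 466 in all rats. Higher calls then outnumbered lower ones when fructose replicate 2, 4 or 6, or chow replicate 2, 4, 5 or 7, was the rat left out. At an unadjusted p under 0.05 limma found 3 of the 8, against 19.2% of all genes. The 8 are few, so these shares are given as a description. The median log2 fold change of the 8 was 0.06, and that of all tested genes 0.000851. Their median absolute log2 fold change was 0.0909, beside 0.0903 for all tested genes. In bulk tissue, more RNA per cell and more cells that express a gene cannot be told apart.

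Gipr, the GIP receptor, had a lowest value of 4.40, a median of 4.89 and a highest value of 5.48 FPKM in fructose rats, against 2.18, 2.90 and 3.93 FPKM in chow rats. Every fructose rat was above every chow rat, a separation seen upwards in 0.879% and in either direction in 1.61% of the genes tested. The means were 4.93 ± 0.400 FPKM on fructose and 2.88 ± 0.624 FPKM on chow (SD, n = 6 and 7), a ratio of 1.71. On the scale of log2(FPKM + 0.5), which understates changes of low genes, Gipr rose by 0.70 ± 0.12 (SE, limma adjusted p = 0.00874). Its coefficient of variation was 8.12% in fructose rats and 21.7% in chow rats, a difference that was not tested. The call was kept in all 13 fits that left out 1 rat, with an adjusted p of at most 0.0217. An exact permutation test gave p = 0.00117, which did not pass when adjusted over all genes (0.0738).

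Ghsr, the ghrelin receptor, had a lowest value of 1.71, a median of 2.92 and a highest value of 4.61 FPKM in fructose rats, against 0.723, 1.15 and 2.20 FPKM in chow rats. The diets overlapped: 4 of 6 fructose rats were above all chow rats, and fructose replicates 4 and 6 were the highest at 4.61 and 4.43 FPKM. Means were 3.09 ± 1.22 FPKM on fructose and 1.27 ± 0.577 FPKM on chow (SD, n = 6 and 7), a ratio of 2.42, the largest of the 8. Ghsr rose by 1.01 ± 0.24 on the log2 scale (limma adjusted p = 0.0346, exact permutation p = 0.00524). The call rested on single rats and was kept in 6 of the 13 fits that left out 1 rat. Leaving out fructose replicate 3, 4 or 6 gave an adjusted p of 0.0519, 0.0884 and 0.0867 in turn. Leaving out chow replicate 2, 4, 5 or 7 gave 0.0751, 0.0662, 0.0608 and 0.0719.

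Glp1r, the target of glucagon-like peptide 1 in neurons that curb feeding, had a lowest value of 1.00, a median of 1.64 and a highest value of 1.86 FPKM in fructose rats, against 0.634, 0.851 and 1.63 FPKM in chow rats. Each fructose rat was above the chow mean and 3 of 6 were above all chow rats, but chow replicate 4 reached 1.63 FPKM. The means were 1.51 ± 0.335 FPKM on fructose and 0.940 ± 0.338 FPKM on chow (SD, n = 6 and 7). The difference of 0.50 ± 0.16 on the log2 scale did not pass (limma adjusted p = 0.0979, exact permutation p = 0.0140). Its interval ran from 0.15 to 0.84 (95%, limma).

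The other 5 receptors did not pass the test, and the interval of each difference is given for that reason. Adipor1 was the steadiest, at 72.2 ± 2.60 FPKM on fructose and 71.7 ± 2.54 FPKM on chow (SD, n = 6 and 7). Its log2 fold change of 0.01 had an interval from -0.07 to 0.09 (95%, limma adjusted p = 0.920). Adipor2 spread more, with 26.5 to 53.7 FPKM in fructose rats and 30.8 to 49.6 FPKM in chow rats, a log2 fold change of -0.07 and an interval from -0.37 to 0.23. Within each rat Adipor1 exceeded Adipor2 by a ratio of 1.88 ± 0.452 on fructose and 1.77 ± 0.346 on chow (SD). This balance did not differ beyond the spread between rats (log2 difference 0.08, exact two-sided permutation p = 0.614).

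The joined row of Lepr and Leprot held 24.6 to 34.6 FPKM in fructose rats and 25.3 to 33.2 FPKM in chow rats, with nearly the same medians of 31.4 and 30.9 FPKM. Its log2 fold change was 0.04, with an interval from -0.12 to 0.21 (95%, limma adjusted p = 0.827). Leprot encodes a small membrane protein that limits leptin receptors at the cell surface, and what share of the row each gene held cannot be read from it. Calcr ranged from 10.4 to 25.3 FPKM in fructose rats and from 14.1 to 29.9 FPKM in chow rats, with a log2 fold change of -0.11 (interval -0.55 to 0.34). Cnr1 ranged from 14.2 to 23.4 FPKM in fructose rats and from 13.8 to 27.9 FPKM in chow rats, with a log2 fold change of 0.08 (interval -0.25 to 0.40). Chow replicate 1 was the highest of all rats for Calcr and for Cnr1, at 29.9 and 27.9 FPKM. The intervals of Calcr, Cnr1 and Adipor2 were wider than those of Adipor1 and Lepr.

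**Figure D2:**
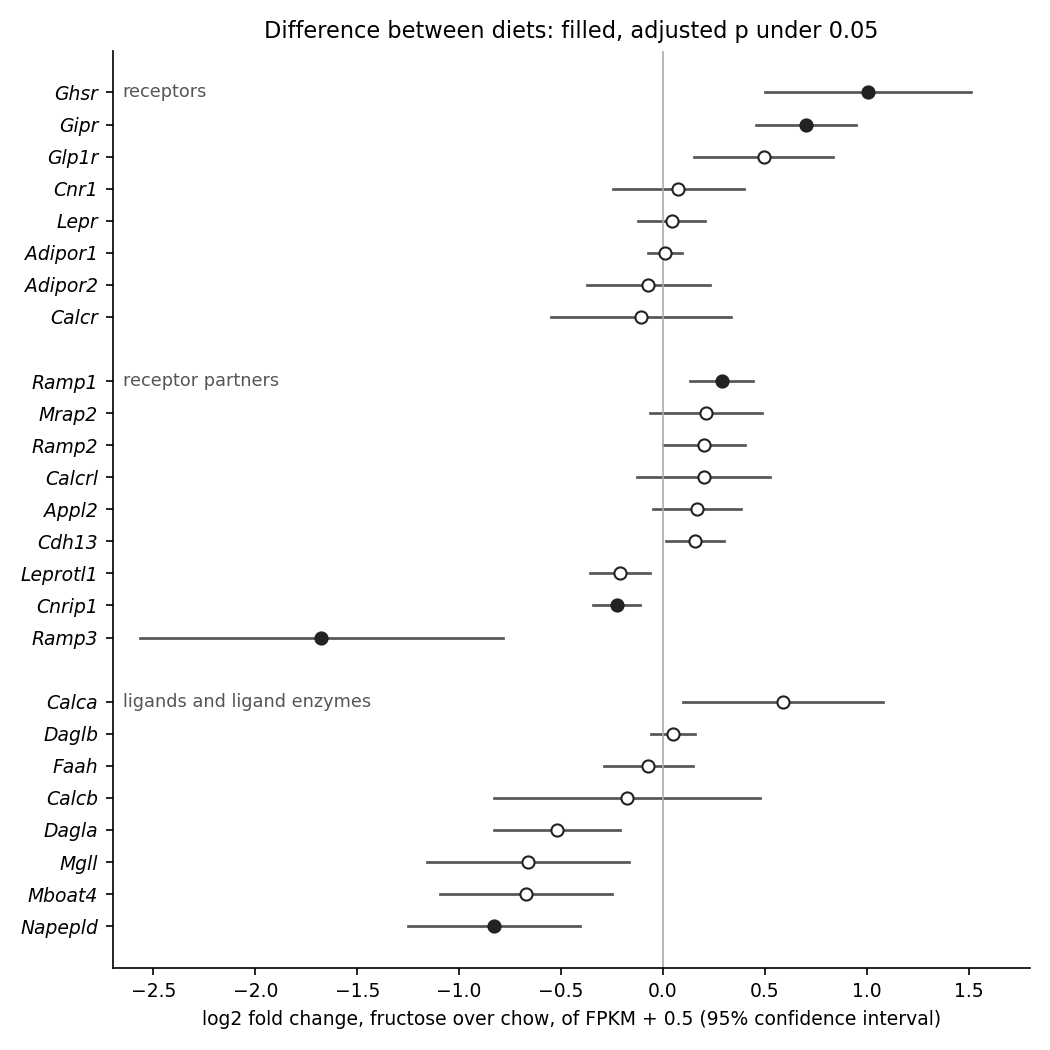
Log2 fold change of FPKM + 0.5, fructose over chow (horizontal axis), with its 95% limma interval, for the 8 receptors, 9 tested receptor partners and 8 tested ligand genes, ordered by size in each block. Filled points passed an adjusted p of 0.05: Ghsr, Gipr and Ramp1 to the right of 0, and Cnrip1, Ramp3 and Napepld to the left.

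Several of the hormones that bind these receptors, made mainly in gut, pancreas and fat, were listed at or near 0 in the tissue. Gip, Iapp (amylin) and Lep were listed at 0 in all 13 rats, and Gcg, the precursor of glucagon-like peptide 1, was above 0 only in fructose replicate 4, at 0.147 FPKM. Ghrl was listed at 0 in 7 rats and reached 0.420 FPKM on fructose and 1.06 FPKM on chow, and Adipoq stayed at or below 0.109 FPKM on fructose and 0.252 FPKM on chow. A listed 0 can be a failed estimate in a table of this kind. Mboat4, the enzyme that acylates ghrelin, had a mean of 0.670 ± 0.355 FPKM on fructose and 1.33 ± 0.397 FPKM on chow, a difference that did not pass (-0.67 ± 0.20, adjusted p = 0.0714). Calca, which encodes calcitonin and a related neuropeptide, was measured in every rat, at 6.74 ± 2.20 FPKM on fructose and 4.38 ± 1.59 FPKM on chow, and did not pass (0.59, adjusted p = 0.172).

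Among enzymes that make or break endocannabinoids, the ligands of Cnr1, Napepld fell and the others did not pass. Of the 8 tested ligand genes 1 fell, 0 rose and 7 did not pass, 5 of the 8 being under an unadjusted p of 0.05, 4 of them lower. Of all tested genes 3.94% changed, 2.27% lower, and 19.2% were under an unadjusted p of 0.05. The median log2 fold change of the 8 was -0.35. Napepld, which releases anandamide from its membrane precursor, had a lowest value of 8.64, a median of 11.5 and a highest value of 16.9 FPKM in fructose rats, against 12.9, 21.6 and 36.0 FPKM in chow rats. It fell by 0.83 on the log2 scale (-0.83 ± 0.20, limma adjusted p = 0.0366), and 4 of 6 fructose rats were below all chow rats. Dagla, which makes 2-arachidonoylglycerol, had a mean of 22.5 ± 4.24 FPKM on fructose and 32.7 ± 7.22 FPKM on chow (adjusted p = 0.0604). Mgll, which degrades it, had 39.9 ± 11.9 FPKM on fructose and 63.7 ± 21.1 FPKM on chow (adjusted p = 0.126). Faah, which degrades anandamide, and Daglb had log2 fold changes of -0.07 and 0.05.

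Among 9 tested partners of the receptors 1 rose, 2 fell and 6 did not pass, with a median log2 fold change of 0.17. The 3 calls were 33.3% of the 9, beside 3.94% of all tested genes. Cnrip1, which binds the cytoplasmic tail of the Cnr1 receptor, had 67.5 to 77.4 FPKM in fructose rats and 80.2 to 97.4 FPKM in chow rats. All 6 fructose rats were below all 7 chow rats, as in 0.727% of the genes tested, and Cnrip1 fell by 0.23 on the log2 scale (limma adjusted p = 0.0361). The 3 Ramp genes, partners of Calcr, did not move together. Ramp1 rose by 0.29 ± 0.07, with a lowest value of 47.8, a median of 50.05 and a highest value of 58.0 FPKM in fructose rats, against 37.7, 39.9 and 49.7 FPKM in chow rats (adjusted p = 0.0408). Ramp3 fell by 1.68 on the log2 scale, with 9.57, 27.2 and 72.5 FPKM in fructose rats, against 34.9, 94.95 and 139 FPKM in chow rats (-1.68 ± 0.42, adjusted p = 0.0394). For Ramp1 3 of 6 fructose rats were above all chow rats and for Ramp3 3 of 6 were below them, so the diets overlapped for each. Ramp2 had a mean of 74.7 ± 8.12 FPKM on fructose and 65.3 ± 9.83 FPKM on chow and did not pass (adjusted p = 0.263).

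Mrap2, an accessory protein of melanocortin and ghrelin receptors, had a log2 fold change of 0.21 that did not pass (adjusted p = 0.408). Cdh13, a cadherin that binds adiponectin, and Leprotl1, a relative of Leprot, had log2 fold changes of 0.16 and -0.21 and did not pass either (adjusted p = 0.210 and 0.104). Calls among these genes depended on single rats. With 1 rat left out, Cnrip1 kept its call in 6 of 13 fits, Ramp3 and Napepld in 4 and Ramp1 in 2. All 4 were lost when fructose replicate 2, 4 or 6, or chow replicate 2, 4, 5 or 7, was left out. Ramp3, Napepld and Ramp1 were also lost without chow replicate 3, and Ramp3 and Ramp1 without chow replicate 6. Leaving out fructose replicate 3 ended the calls of Napepld and Ramp1, and leaving out fructose replicate 5 that of Ramp1. The highest adjusted p in these fits was 0.0969, for Ramp3.

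Genes that carry the receptors' signals inside the cell gave no call. Of 17 leptin signalling genes limma called 0, with 1 at an unadjusted p under 0.05 and 2 by the exact permutation test. That gene was Ptpn1, the phosphatase that damps Jak2, with 11.7 ± 2.20 FPKM on fructose and 15.3 ± 2.18 FPKM on chow (log2 fold change -0.38, adjusted p = 0.0780). Of 13 genes of adiponectin receptor signalling limma called 0, with 1 at an unadjusted p under 0.05 and 1 by permutation, the AMP-activated kinase subunit Prkab1 (0.15, adjusted p = 0.215). Of 26 genes of G proteins, cAMP and arrestins limma called 0, with 6 at an unadjusted p under 0.05 and 6 by permutation. The smallest p among these was that of Gnal, a stimulatory G protein, at 48.9 ± 3.91 FPKM on fructose and 60.9 ± 8.61 FPKM on chow (-0.30, adjusted p = 0.0597). Among all 11837 tested genes 3.94% were called and 19.2% had an unadjusted p under 0.05. By the exact permutation test 2223 of them were under 0.05. The lists are short, so their 0 calls are given as a description. The median log2 fold changes of these 3 lists were -0.04, 0.02 and -0.08.

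Other class B hormone receptors, and receptors of other metabolic hormones whatever their family, were counted beside the 8. Of 6 tested class B hormone receptors 1, Vipr2, a receptor of vasoactive intestinal peptide, fell: it had a lowest value of 3.38, a median of 5.06 and a highest value of 9.76 FPKM in fructose rats, against 5.39, 11.8 and 18.5 FPKM in chow rats (-1.06 ± 0.27, limma adjusted p = 0.0409). The median log2 fold change of the 6 was 0.04. Of 22 tested receptors of other metabolic hormones 1 rose, 1 fell and 20 did not pass, with a median of 0.06. Calls were 16.7% of the 6 and 9.09% of the 22, beside 3.94% of all tested genes, and each share rests on 1 or 2 genes. Mc3r, a melanocortin receptor, had 2.49, 4.94 and 6.24 FPKM in fructose rats, against 1.23, 1.92 and 3.27 FPKM in chow rats, and rose by 0.98 ± 0.20 (adjusted p = 0.0258). Npy1r, a receptor of neuropeptide Y, had 4.60, 9.35 and 12.1 FPKM in fructose rats, against 13.9, 16.2 and 19.6 FPKM in chow rats, and fell by 0.88 on the log2 scale (adjusted p = 0.0213). For Npy1r all 6 fructose rats were below all 7 chow rats, as in 0.727% of the genes tested. For Mc3r 5 of 6 fructose rats were above all chow rats. Over all 101 tested genes of the related lists 7 changed, or 6.93%, 2 of them higher and 5 lower, with a median log2 fold change of -0.03. Of all tested genes 3.94% changed, 1.66% higher and 2.27% lower.

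Single rats mattered here too. Npy1r lost its call when fructose replicate 4 or chow replicate 2 was left out, and Mc3r then too, as well as for fructose replicate 6 or chow replicate 4. Vipr2 kept its call in 3 of 13 fits, those that left out fructose replicate 3, fructose replicate 5 or chow replicate 1. Leaving out fructose replicate 4 or chow replicate 2 left limma with 0 calls among the 101 genes, and 20 and 21 at an unadjusted p under 0.05. Over all tested genes the same fits gave 83 and 89 calls, and 1981 and 1866 at an unadjusted p under 0.05. Calls numbered 2 when fructose replicate 2 and 1 when fructose replicate 6 was dropped, beside 147 and 113 over all tested genes. Dropping chow replicate 1, 3, 4, 5 or 7 gave 11, 3, 1, 2 and 2 calls. Over all tested genes these fits gave 859, 304, 103, 187 and 153 calls, against 466 in all rats.

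Markers of the tissue bear on how the libraries compare. The hypothalamic peptide Pmch (melanin-concentrating hormone) was abundant in each rat, with 1346 to 5669 FPKM on fructose and 3607 to 7136 FPKM on chow. Avp (vasopressin) ranged from 0.451 to 214 FPKM on fructose and from 5.08 to 601 FPKM on chow, and Npy was listed at 0 in every rat. The level of a list is the mean log2(FPKM + 0.5) of its tested genes. That of 12 hypothalamic transcription factors was 1.39 ± 0.554 on fructose and 1.20 ± 0.327 on chow (SD, exact permutation p = 0.437; 1 of the 12 rose), and that of 14 hypothalamic peptides 4.60 ± 1.03 on fructose and 5.01 ± 0.729 on chow (exact permutation p = 0.415).

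Midbrain and thalamic markers differed between the diets, where 1.66% of all tested genes were called higher and 2.27% lower on fructose. Of 14 tested genes of midbrain dopamine neurons 12 rose and 2 did not pass, and their list level was 3.93 ± 0.416 on fructose and 2.13 ± 0.264 on chow (exact permutation p = 0.000583, adjusted over 9 lists 0.00524). Summed, they came to 326 to 687 FPKM in fructose rats and 205 to 236 FPKM in chow rats, and none of them was at 0 in all rats. Much of these sums was Calb1, which did not pass, with means of 108 FPKM on fructose and 122 FPKM on chow. Slc6a3 and Th, among the 12 that rose, had means of 63.4 and 125 FPKM on fructose, against 1.36 and 22.1 FPKM on chow. Of 14 thalamus genes 8 fell, 1 rose and 5 did not pass, with a level of 4.33 ± 0.682 on fructose and 5.37 ± 0.459 on chow (exact permutation p = 0.00758, adjusted 0.0170). Their sum was 589 to 1023 FPKM in fructose rats and 692 to 1503 FPKM in chow rats, again with none at 0 throughout. Calb2, the 1 that rose, had the largest means in the list, 382 FPKM on fructose and 270 FPKM on chow. Prkcd, among the 8 that fell, had means of 57.7 FPKM on fructose and 220 FPKM on chow. Lists of blood cells and of meninges were also higher on fructose (exact permutation p = 0.00175 for each, adjusted 0.00524). Of 6 tested blood genes 5 rose, with sums of 516 to 2317 FPKM on fructose and 246 to 656 FPKM on chow, with none at 0 in all rats. Of 7 tested meningeal genes 5 rose, with sums of 31.2 to 81.7 FPKM on fructose and 22.3 to 35.8 FPKM on chow, and Col1a2 and Ogn were at 0 throughout. Striatal, choroid plexus and pituitary lists did not pass (exact permutation p = 0.0862, 0.707 and 0.638). Of 10 tested striatal genes 3 rose and 7 did not pass, while 0 of 6 choroid plexus and tanycyte genes and 0 of 5 pituitary genes were called. The part of any of these lists in the differences of the receptors, their partners and ligands was not tested.

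**Figure D3:**
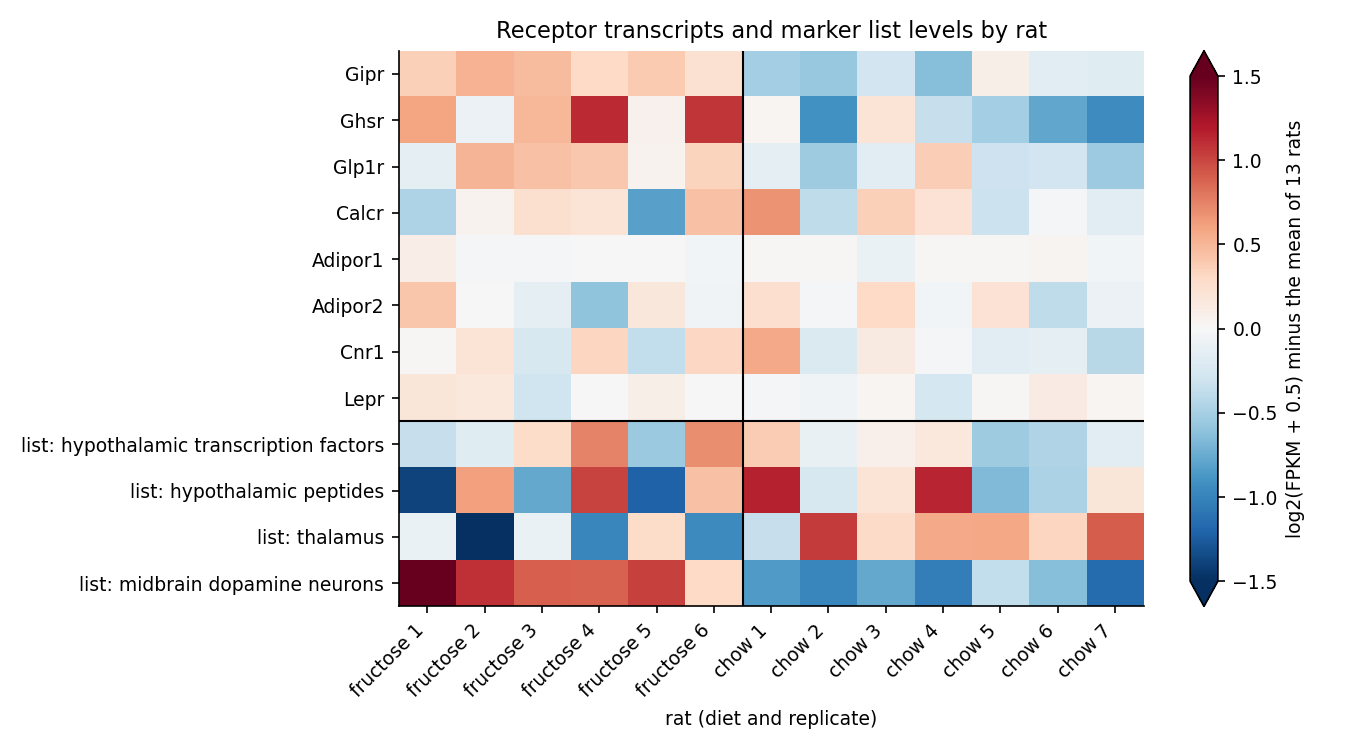
Log2(FPKM + 0.5) of each receptor, and the level of 4 marker lists, as the deviation from the mean of the 13 rats (colour, cut at 1.5 either way), with the 6 fructose rats left of the 7 chow rats. Gipr is above its mean in all 6 fructose rats, Ghsr is highest in fructose replicates 4 and 6, and the thalamus list is lowest in fructose replicate 2.

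Within a diet, the receptors did not all vary alike from rat to rat. With each diet's mean subtracted, relations of the 8 receptors with 9 marker lists were computed over the 13 rats, 72 in all, and 2 passed for Pearson's r when adjusted over the 72. Calcr was high where the hypothalamic transcription factors were high (Pearson r = 0.84, permutation p = 0.000750, adjusted p = 0.0270). For this relation Spearman's rho was 0.81 (permutation p = 0.00209, adjusted 0.0752), and r without the 2 rats farthest from the median of Calcr was 0.85. Calcr also had r = 0.77 with the striatum list, 0.75 with the hypothalamic peptides and -0.74 with the thalamus list. These did not pass when adjusted (permutation p = 0.00411, 0.00658 and 0.00687, adjusted p = 0.0753 for each). Their rho was 0.65, 0.70 and -0.70, and r without the 2 farthest rats 0.72, 0.71 and -0.59. Cnr1 was low where the thalamus list was high (r = -0.86, permutation p = 0.000500, adjusted p = 0.0270, rho = -0.87, permutation p = 0.000420, adjusted 0.0302), with r = -0.78 without the 2 farthest rats. Ghsr had r = 0.74 with the hypothalamic transcription factors (permutation p = 0.00918, rho = 0.65, permutation p = 0.0345), which did not pass when adjusted (0.0753 and 0.155); r was 0.70 without the 2 farthest rats. Gipr had r = -0.55 with these factors (permutation p = 0.0166, adjusted p = 0.118, rho = -0.55, permutation p = 0.0230, r = -0.48 without the 2 farthest rats). It had r = 0.04 with the thalamus list (permutation p = 0.894, rho = 0.03, permutation p = 0.914) and r = 0.49 with the dopamine neuron list (permutation p = 0.0486, adjusted p = 0.233, rho = 0.51, permutation p = 0.0827). Without the 2 farthest rats the r of Gipr with these lists was 0.04 and 0.27. Gipr had r = -0.56 with the striatum list (permutation p = 0.0455, adjusted p = 0.233, rho = -0.68, permutation p = 0.0117). Ghsr had r = -0.40 with the thalamus list and -0.19 with the dopamine neuron list (permutation p = 0.203 and 0.580). Glp1r with the hypothalamic peptides, and Cnr1 with them and with the striatum list, had r = 0.70, 0.72 and 0.74 (adjusted permutation p = 0.0753 for each).

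**Figure D4:**
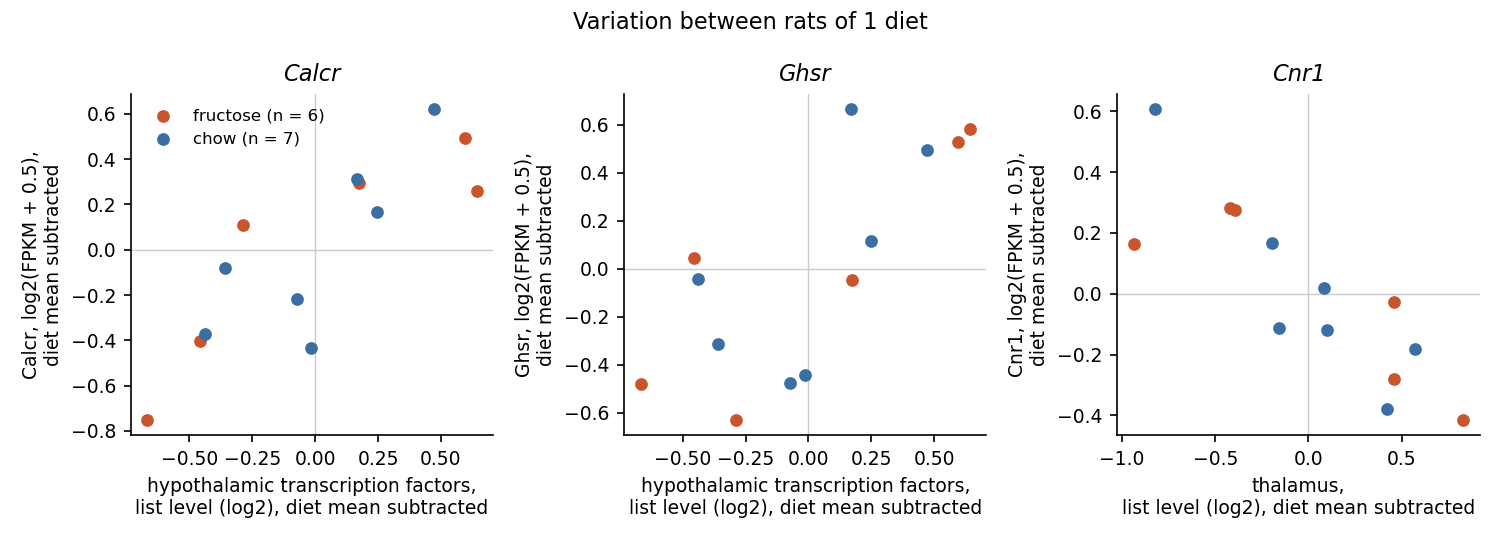
Deviation from the diet mean of Calcr, Ghsr and Cnr1 in log2(FPKM + 0.5) (vertical axes) against that of a marker list's level (horizontal axes), 1 point per rat, in 6 fructose and 7 chow rats. Calcr follows the hypothalamic transcription factors with r = 0.84, and Cnr1 runs against the thalamus list with r = -0.86. Ghsr has r = 0.74 with the hypothalamic transcription factors. Neither this r of Ghsr nor Spearman's rho of Calcr passed when adjusted.

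Of the 28 pairs of receptors 14 had a positive and 14 a negative r within diets, and 0 passed when adjusted over the 28 (4 at an unadjusted permutation p under 0.05). The largest was that of Calcr with Cnr1 (r = 0.77, permutation p = 0.00393, adjusted p = 0.110, rho = 0.74, permutation p = 0.00816), with r = 0.69 without the 2 farthest rats. Gipr and Ghsr had r = -0.33 (permutation p = 0.284, adjusted p = 0.662, rho = -0.40, permutation p = 0.165, and r = -0.43 without the 2 farthest rats).

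Genes of the related lists that fell between diets also followed the thalamus list from rat to rat. Over the 13 rats within diets, Ramp3 had r = 0.98, Vipr2 r = 0.94, Npy1r r = 0.89, Napepld r = 0.83 and Cnrip1 r = 0.71 with its level. Their permutation p adjusted over 14 relations was 0.000140, 0.000140, 0.000233, 0.00312 and 0.0267. Spearman's rho was 0.98, 0.93, 0.90, 0.81 and 0.73 (adjusted permutation p 0.000210, 0.000210, 0.00257, 0.00829 and 0.0269), and r without the 2 farthest rats 0.96, 0.92, 0.86, 0.79 and 0.68. Neither gene that rose passed: Ramp1 had r = -0.35 (permutation p = 0.233, rho = -0.19, permutation p = 0.529, and r = 0.32 without the 2 farthest rats). Mc3r had r = -0.45 (permutation p = 0.175, rho = -0.40, permutation p = 0.217, and r = -0.03 without the 2 farthest rats). That the 5 genes that fell and the 2 that rose differ in this was not tested. The 14 relations were those of these genes with the thalamus list and with the hypothalamic transcription factors. None passed with the transcription factors, where Napepld had the lowest adjusted p (r = -0.53, permutation p = 0.0650, adjusted p = 0.152, rho = -0.56, permutation p = 0.0643). Relations with the other marker lists, and the share of all tested genes that follow the thalamus list, were not examined. In chow replicate 1, where the thalamus list was lowest among chow rats at 4.55, Ramp3 and Vipr2 were also lowest among chow rats, at 34.9 and 5.39 FPKM. Npy1r and Napepld were lowest there too, at 13.9 and 12.9 FPKM. Cnrip1 was not, at 85.5 FPKM where chow rats ran from 80.2 to 97.4 FPKM. This rat was picked after its values were seen.

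Across all tested genes, those whose pattern over the 13 rats was most like a receptor's, diet means removed, are given as a description, since they were picked for the highest r. For Gipr they were Bcl2a1 (r = 0.89), the copper transporter gene Slc31a2 (0.87) and Myrf (0.87), a transcription factor of myelinating cells. For Ghsr they were P2rx3 (0.94), an ATP-gated channel, the laminin gene Lama5 (0.92) and Fnbp1l (0.91). Calcr was closest to Cckar (0.97), a cholecystokinin receptor, Rgs9 (0.95), a regulator of G proteins, and the phosphatase gene Ptpro (0.94). Cnr1 was closest to Cdhr1 (0.93), Fam5c (0.93) and Dcx (0.92), the doublecortin of young neurons. The joined Lepr row was closest to Lgi3 (0.91), Ugt8 (0.89), an enzyme of myelin lipid synthesis, and Acsl1 (0.89). Pltp, Riiad1 and Mr1 led for Glp1r (0.88, 0.86 and 0.86), Pnrc1, Ube2m and Prpf18 for Adipor1 (0.91, 0.91 and 0.84), and Ssfa2 and Tstd2 for Adipor2 (0.92 for each). Of the genes named here as most like a receptor 1, Pltp, differed between diets (log2 fold change 0.22, limma adjusted p = 0.0258).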

How the data were processed

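RNA was sequenced from the whole hypothalamus of 13 rats, 6 on fructose and 7 on chow. The deposited values are FPKM, made by the authors with STAR 2.3.0e, Cufflinks 2.1.1 and Cuffdiff on build rn5, per the submitters' processing notes. The sources used here do not give their settings, strand use or scaling of libraries. FPKM summed to between 556902 and 608058 in a rat, with 13156 to 13384 rows above 0. No 2 columns were identical. Read depth is unknown, so precision rests on the spread between rats, and no counting interval is given.

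Columns were matched to rats by name, and diets were taken from the labels. Replicates were numbered in accession order, so a number pairs nothing. Values were analysed as log2(FPKM + 0.5) in the 11837 genes averaging 0.5 FPKM or more. The model was limma 3.58.1 (R 4.3.3), two-sided, fructose minus chow, with empirical Bayes moderation and an intensity trend. Benjamini-Hochberg adjustment ran over all tested genes, with a call at an adjusted p under 0.05. Exact permutation tests used the 1716 splits of the rats, with a smallest p of 0.000583. Relations within diets used 100000 permutations within each diet. The procedure was tested on simulated data.

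Receptors and related lists were chosen with earlier results of these data known. Of 236 listed symbols 228 were matched, and the row of highest mean was used for the 4 with more than 1 row. Named genes are the receptors, changed members of related lists (else the member of smallest p), the 3 genes most like each receptor (1 of them is not reported here) and markers. Other list members were chosen after their values were seen. Alternatives were other pseudocounts, filters, scalings, weights, moderation, a threshold of 0.1, the permutation test and leaving out each rat.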

Additional observations from a re-analysis of the deposited data

Results flagged for a closer look

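A pair of values stood apart from their group by Dixon's criterion (gap to the nearest rat over the group's range), in 32 groups of 6 or 7 rats examined, where chance flags about 1 in 20. Glp1r in chow replicate 4 was 1.63 FPKM, with the next chow rat at 1.01 FPKM. Without that rat the log2 fold change of Glp1r was 0.59 and its limma adjusted p 0.0594, against 0.50 and 0.0979 in all rats. Adipor1 in fructose replicate 1 was 77.2 FPKM, with the next fructose rat at 72.4 FPKM. Without it the log2 fold change of Adipor1 was -0.01, against 0.01 in all rats.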

How the results depend on the processing

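Gipr was called in every alternative but the permutation test adjusted over all genes (adjusted p = 0.0738), and its log2 fold change ran from 0.63 to 0.78. Ghsr was not called under that test (0.114) or without 7 of the rats in turn, and ran from 0.83 to 1.23. Glp1r passed only at an adjusted p under 0.1, and with a filter at a mean of 2 FPKM it was not tested. The permutation test called 0 of the 8 receptors, 0 of the related genes and 0 of all genes, with 3, 26 and 2223 at an unadjusted p under 0.05; its smallest p is limited by the number of splits. With 1 rat left out, 1 to 2 receptors, 0 to 11 related genes and 83 to 859 of all genes changed, against 2, 7 and 466. Related genes came to 4 with no filter on low values, 12 with array weights, 2 with no intensity trend and 12 at an adjusted p under 0.1, and all genes to 308, 1019, 304 and 915. The split of higher against lower calls over all genes was 159 and 149 with no filter and 172 and 132 with no intensity trend, against 197 and 269; with array weights it was 376 and 643. With 1 rat left out it ran from 62 and 21 (without fructose replicate 4) to 293 and 566 (without chow replicate 1). Higher calls led without fructose replicate 2 (102 and 45) or 6 (74 and 39), and without chow replicate 2 (61 and 28), 4 (70 and 33), 5 (114 and 73) or 7 (104 and 49).

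Small differences turned round. Calcr had a log2 fold change of 0.021 with array weights. With 1 rat left out it ran from -0.21 to 0.044 for Calcr (turned without fructose replicate 5), from -0.0084 to 0.019 for Adipor1 (turned without fructose replicate 1, and at -0.0060 without chow replicate 3) and from -0.16 to 0.040 for Adipor2 (turned without fructose replicate 4). The log2 ratio of Adipor1 to Adipor2 differed by -0.030 to 0.16, turned without fructose replicate 4. Of the 9 marker lists 4 to 5 passed. The causes were not tested. No paired fit was made, since the labels name no number as a replicate. The titles end in a pair of numbers, with no meaning given for either. The second recurs across diets in some rats, and the first is shared by chow replicates 1 and 2. The first is lower in every chow rat than in every fructose rat, so whatever it stands for cannot be told apart from diet.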
